A study of Mus musculus with 51 samples.

Results

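The domains described here are long stretches of chromatin in which many acetylated enhancers lie close together, and they were chosen by the H3K27ac peaks of 3 stages of astrocyte formation. In the peak list of each stage, peaks on chromosomes 1 to 19 with the centre within 1 kb of a coding start site were dropped, the remaining distal peaks were joined where the gap between them was 12500 bp or less, and the 500 joined domains with the largest sum of peak widths were taken. This gave 1500 domains of the 79400 joined domains of the 3 stages. Domains of different stages that overlapped were merged, and 996 separate regions were left.

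All stages came from cultures made from C57/BL-6 embryonic stem cells. Astrogliogenic neural precursor cells (aNPC) were held in DMEM-F12 with N2, EGF and FGF-2, and early astrocytes (eA) and late astrocytes (lA) were the same kind of cells after 1 day and 5 days in DMEM with serum and leukemia inhibitory factor (LIF). H3K27ac and H3K4me1 were measured by chromatin immunoprecipitation and sequencing, and the reads of 2 replicates were merged before peaks were called, so each stage has 1 list per mark. Stage, medium and serum changed together and cannot be told apart, and a difference between stages carries no replicate error and no p-value here.

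Acetylation of lysine 27 of histone H3 marks active promoters and enhancers, and monomethylation of lysine 4 marks enhancers whether they are active or not yet active. Enhancers that lie in dense clusters, often called super-enhancers when they are ranked on their ChIP-seq signal, tend to lie near genes that define a cell type. In the making of astrocytes, such genes include the nuclear factor I and Sox9 transcription factors, while EGF and FGF keep precursors dividing and LIF acts through gp130, the JAK kinases and STAT3. The domains here were ranked on summed peak width and not on signal, and were therefore not called super-enhancers.

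Of the distal peaks, 5356 (8.64%) were part of the 500 aNPC domains, 5545 (8.70%) of the eA domains and 6078 (8.18%) of the lA domains. They held 10.9%, 11.0% and 9.95% of the distal peak width. The median width sum was 6204.5 bp in aNPC and 5855.5 and 6935.5 bp in eA and lA, and the median over all joined domains was 954 bp, 832 bp and 1018 bp. The domains thus stood at the upper end of a list in which 39.3%, 40.1% and 34.3% of the joined domains were a lone peak. A domain spanned a median of 41.7 kb in aNPC, 39.1 kb in eA and 45.3 kb in lA, and held a median of 10 (aNPC and eA) or 11.5 (lA) peaks.

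The limit fell in a flat part of the ranking. The domains at ranks 500 and 501 had width sums of 4963 and 4961 bp in aNPC, 4664 and 4656 bp in eA, and 5611 and 5610 bp in lA. The lists also differed in length, with 44.4 and 43.2 Mb under H3K27ac peaks in aNPC and eA and 49.1 Mb in lA, and the last domain taken was widest in lA.

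**Figure D1:**
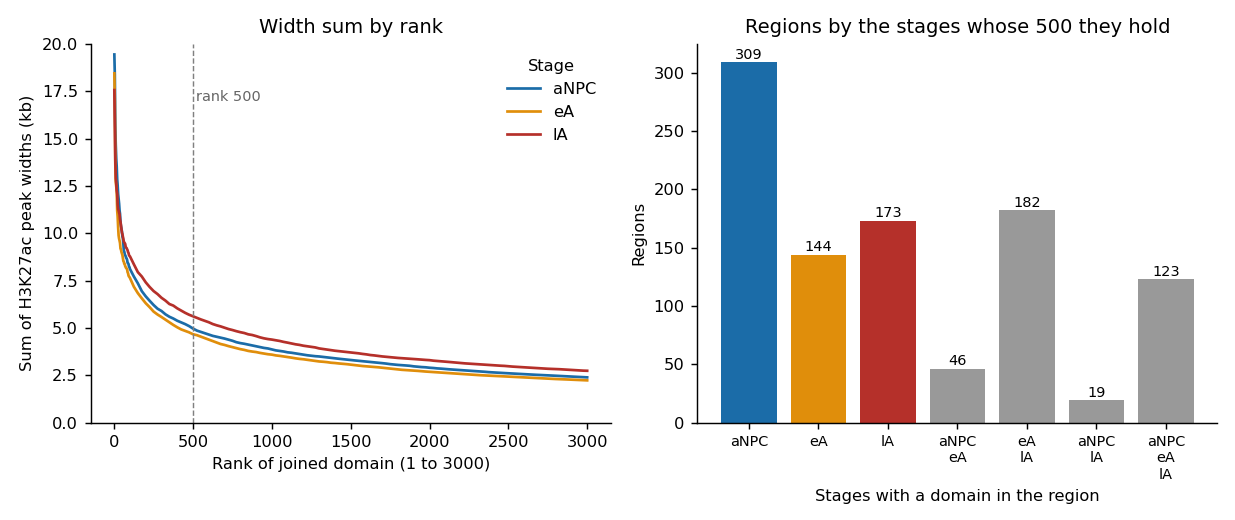
The left plot gives the sum of H3K27ac peak widths (kb) against the rank of the joined domain for aNPC (blue), eA (orange) and lA (red), with rank 500 as a dashed line, and the right plot gives the number of regions by the stages whose 500 domains they hold. The curves are flat at rank 500, and regions of aNPC alone (309) and of eA and lA together (182) are the most frequent.

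To show what these regions look like, the 200 bases around the summit of the peak with the highest −log10 q of a region are printed for the first 2 regions of each stage alone, for the eA region at Sox2, and for the region near E130114P18Rik that led those of all 3 stages. The sequences are mm9, plus strand. Capitals mark matches, on either strand, to the letters of 9 motifs: AP-1 (TGANTCA), the NF1 full site (2 facing sets of the letters TTGGC and GCCAA, 5 bases apart), the NF1 half-site (TTGGCA, which overlaps a full site where the base after TTGGC is A), RUNX (TGTGGT), STAT (TTCCNGGAA), SOX (ACAATG), TEAD (ACATTCC), an E-box (CAGCTG) and ETS (CCGGAAG).
Nat10 aNPC, chr2:103522871-103523070: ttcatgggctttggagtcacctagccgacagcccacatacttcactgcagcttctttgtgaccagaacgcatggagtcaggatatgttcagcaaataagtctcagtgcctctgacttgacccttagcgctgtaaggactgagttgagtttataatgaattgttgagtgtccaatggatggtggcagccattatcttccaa
Kirrel3 aNPC, chr9:34746602-34746801: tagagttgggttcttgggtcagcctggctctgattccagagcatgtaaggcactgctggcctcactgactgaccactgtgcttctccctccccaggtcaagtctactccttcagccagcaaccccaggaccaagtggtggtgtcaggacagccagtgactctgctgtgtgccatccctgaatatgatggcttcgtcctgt
Gabbr2 eA, chr4:46857626-46857825: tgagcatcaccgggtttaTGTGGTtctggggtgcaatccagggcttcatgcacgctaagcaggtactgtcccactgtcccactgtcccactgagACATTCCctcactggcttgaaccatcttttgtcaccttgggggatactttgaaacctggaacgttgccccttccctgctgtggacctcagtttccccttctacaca
Cp eA, chr3:19857510-19857709: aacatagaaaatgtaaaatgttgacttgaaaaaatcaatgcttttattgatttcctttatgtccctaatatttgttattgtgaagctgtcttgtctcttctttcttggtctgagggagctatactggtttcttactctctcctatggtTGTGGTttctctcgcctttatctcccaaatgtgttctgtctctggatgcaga
Sox2 eA, chr3:34549828-34550027: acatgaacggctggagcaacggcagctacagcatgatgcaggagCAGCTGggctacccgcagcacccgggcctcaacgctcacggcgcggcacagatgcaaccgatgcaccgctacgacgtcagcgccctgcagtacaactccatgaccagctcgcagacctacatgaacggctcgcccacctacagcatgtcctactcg
Vps13d lA, chr4:144574609-144574808: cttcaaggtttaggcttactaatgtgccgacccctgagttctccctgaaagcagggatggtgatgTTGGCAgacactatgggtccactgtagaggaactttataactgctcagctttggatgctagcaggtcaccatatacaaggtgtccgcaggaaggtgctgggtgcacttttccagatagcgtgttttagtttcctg
Fam179a lA, chr17:72079659-72079858: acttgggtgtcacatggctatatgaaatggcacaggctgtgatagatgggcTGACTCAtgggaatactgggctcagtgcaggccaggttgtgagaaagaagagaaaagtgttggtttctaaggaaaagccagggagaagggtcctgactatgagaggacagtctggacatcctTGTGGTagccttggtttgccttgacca
E130114P18Rik aNPC, chr4:97316870-97317069: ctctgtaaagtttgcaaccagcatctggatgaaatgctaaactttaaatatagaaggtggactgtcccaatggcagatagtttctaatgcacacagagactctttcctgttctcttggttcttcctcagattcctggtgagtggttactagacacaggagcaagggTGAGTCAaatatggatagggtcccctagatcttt
E130114P18Rik eA, chr4:97250186-97250385: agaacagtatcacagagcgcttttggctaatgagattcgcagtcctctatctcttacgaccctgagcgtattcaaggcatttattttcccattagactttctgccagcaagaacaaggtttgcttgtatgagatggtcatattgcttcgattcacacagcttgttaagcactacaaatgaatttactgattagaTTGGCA
E130114P18Rik lA, chr4:97316643-97316842: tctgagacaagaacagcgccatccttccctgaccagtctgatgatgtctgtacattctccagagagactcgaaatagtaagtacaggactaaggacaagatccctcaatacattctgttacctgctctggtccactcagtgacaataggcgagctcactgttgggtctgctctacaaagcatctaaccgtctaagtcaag

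The aNPC windows near Nat10 and Kirrel3 held no match. The Nat10 summit lay in an intron of the neighbouring gene Abtb2, and the Kirrel3 summit lay in an exon of Kirrel3. The eA window in an intron of Gabbr2 held a RUNX and a TEAD match, the window in the first part of Cp held a RUNX match, and the Sox2 window, which lay in an exon of Sox2, held an E-box match. Of the lA windows, the one in an intron of Vps13d held an NF1 half-site, and the intergenic one near Fam179a held an AP-1 and a RUNX match. At E130114P18Rik the aNPC window held an AP-1 match, the eA window an NF1 half-site at its end, and the lA window none. Such matches were frequent in any distal window: of the windows of all distal peaks in aNPC, eA and lA, 15.1%, 14.5% and 14.9% held a RUNX match, and an NF1 half-site was in 12.3%, 12.8% and 11.8%.

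The domains of eA met those of lA more often than those of aNPC. Of the 500 eA domains, 310 overlapped an lA domain (62.0%, 95% Wilson interval 57.7 to 66.1) and 169 overlapped an aNPC domain (33.8%, 29.8 to 38.1). Of the 500 aNPC domains, 172 overlapped an eA domain (34.4%) and 143 an lA domain (28.6%), and of the 500 lA domains, 308 overlapped an eA domain (61.6%) and 144 an aNPC domain (28.8%). The same order held for single peaks over the whole lists, where 69.3% of all distal eA peaks overlapped an lA peak and 48.4% an aNPC peak, so it is not particular to the domains. The corresponding shares of the distal aNPC list were 48.5% with eA and 47.3% with lA, and those of the distal lA list 59.9% with eA and 40.9% with aNPC. The intervals cover counting error over domains only, and domains are not replicates of a stage.

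A domain was counted as belonging to a stage alone where it overlapped none of the 500 domains of the other stages. This held for 309 aNPC domains (61.8%, 57.5 to 66.0), 144 eA domains (28.8%, 25 to 32.9) and 173 lA domains (34.6%, 30.6 to 38.9). Of all distal peaks, 43.4%, 20.1% and 32.8% overlapped no peak of another stage, in the same order. Under a fixed limit of 5000 bp of width sum in every list, chosen after the data were seen, the counts were 296, 61 and 336, so whether aNPC or lA held more domains of its own depended on how the limit was set. In the regions, 182 held domains of eA and lA, 123 of all 3 stages, 46 of aNPC and eA, and 19 of aNPC and lA.

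Regions of 1 stage alone were seldom empty of H3K27ac at the other stages. The 309 regions of aNPC alone held a median of 6009 bp of distal H3K27ac peaks in aNPC but 3014 and 3125 bp in eA and lA, and no peak at all in 3 regions in eA and 7 in lA. The 173 regions of lA alone held 2388 and 4221 bp in aNPC and eA but 6466 bp in lA, and 8 held no peak in aNPC. The 144 regions of eA alone held 3465, 5233 and 4661.5 bp, so most of them were nearly as wide in lA as in eA. In 29 of the 144 eA domains (20.1%) the lA peaks were at least as wide as the eA peaks, against 25.5% of all joined eA domains, and they were not among the 500 of lA because that limit was higher or because the peaks were joined differently. The widths chose these groups, and the differences are a description.

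The same was seen domain by domain, with the same share over all joined domains of the stage as the background. Of the 309 aNPC domains of that stage alone, 179 (57.9%) held at most 50% of their width in eA and 158 (51.1%) in lA, against 57.1% and 55.7% of all aNPC domains. Of the 144 eA domains, 48 (33.3%) held at most 50% in aNPC and 3 (2.08%) in lA, against 52.7% and 30.8%. Of the 173 lA domains, 120 (69.4%) held at most 50% in aNPC and 35 (20.2%) in eA, against 61.2% and 46.0%. Since these domains were selected on their width, nothing is read from the distance to the background.

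Domains of 1 stage alone ranked past 500 at the other stages by their definition, some of them just past it. The best-ranked domain that overlapped an eA domain of that stage alone had a median rank of 1069.5 in lA and 1855 in aNPC. For lA domains the median ranks were 1195 in eA and 4780 in aNPC, and for aNPC domains they were 2363 in eA and 3047 in lA. Of the 144 eA domains, 67 had their best lA overlap at ranks 501 to 1000 and 5 past 5000, and in aNPC 38 and 36 did. Of the 173 lA domains, 66 had it at ranks 501 to 1000 in eA and 14 past 5000, while in aNPC 22 and 74 did and 8 met no domain. Of the 309 aNPC domains, 65 were at ranks 501 to 1000 in eA and 39 in lA, and 91 and 92 were past 5000.

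**Figure D2:**
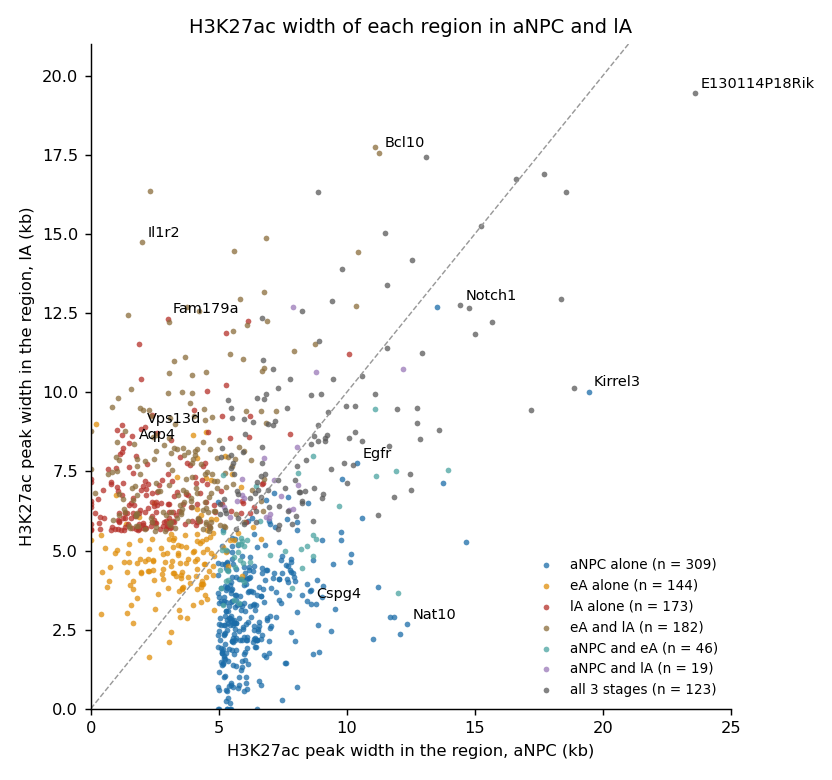
Each point is 1 of the 996 regions, with its distal H3K27ac peak width (kb) in aNPC on the horizontal axis and in lA on the vertical axis, coloured by the stages whose 500 domains it holds, and the dashed line marks equal width. Kirrel3, Nat10, Cspg4 and Egfr lie under the line, Il1r2, Fam179a, Vps13d and Aqp4 lie above it, and E130114P18Rik is at the upper right with 23587 bp in aNPC and 19449 bp in lA.

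The largest aNPC domain held an internal start site of Kirrel3, a cell adhesion molecule of the nephrin family, at chr9:34746434-34869549, and was not among the 500 of the other stages. Its region held 19446 bp of H3K27ac peaks in aNPC but 6728 and 10019 bp in eA and lA. Of the 10 largest aNPC domains, 8 met domains of both other stages, and the exceptions were Kirrel3 and Rptor, which codes for a subunit of the mTORC1 kinase complex. At Rptor (chr11:119619083-119705377) the region held 14649 bp in aNPC against 3367 in eA and 5254 in lA. The others lay near Mtss1l, Ppara, Tgfbi, Ttc7, E130114P18Rik, Msi2, Cxxc5 and Zcchc24.

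Several of these large regions had another coding gene near by, so the nearest gene is a label and not a target. The largest eA domain (chr15:85430252-85540682) was nearest to Wnt7b, a Wnt ligand, while the aNPC domain that it met, at rank 3, was nearest to Ppara, a receptor for fatty acids, and the lA domain was at rank 50. Their merged region (chr15:85430252-85551646) lay between both genes, with the Ppara start 14.3 kb outside it and the Wnt7b start 18 kb outside it on the other side. The region held 18546 bp in aNPC and 18448 and 16331 bp in eA and lA. The region at Tgfbi (chr13:56651284-56785745), a matrix protein induced by TGF-beta, was at rank 4 (aNPC), 295 (eA) and 331 (lA), with 18362, 9461 and 12959 bp, and the start of Smad5 lay 18.6 kb outside it. The region at E130114P18Rik (chr4:97209907-97343514) ended 95.9 kb before the start of Nfia, the nuclear factor I gene needed for gliogenesis.

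Of the 10 largest eA domains, 7 met domains of both other stages, and those near Sik3, Fam53b and Il17b met lA domains only. The region at Sik3 (chr9:45834109-45989783), a salt-inducible kinase, held 11087 bp in aNPC, then 16905 bp in eA and 17753 bp in lA. The region near Fam53b (chr7:139865548-139946752) held 6853, 13672 and 14872 bp, and that near Il17b (chr18:61739342-61844628) held 5581, 12789 and 14467 bp. All 3 were widest in lA and narrowest in aNPC. The remaining domains of the 10 lay near Wnt7b, Cuedc1, E130114P18Rik, Cxxc5, Ahdc1, Wwc1 and 1700001O22Rik.

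None of the 10 largest lA domains was of lA alone. The first (chr3:145461712-145567796) was nearest to Bcl10, an adaptor of NF-kappa-B signalling, and its region (chr3:145461712-145568549), which ended 18.8 kb from the Bcl10 start, held 11276 bp in aNPC against 15341 in eA and 17565 in lA. The most uneven of the 10 lay between Il1r2, the decoy receptor of interleukin 1, and Il1r1, its signalling receptor (chr1:40173685-40246666), with 1995 bp in 4 peaks in aNPC, 10309 bp in 21 peaks in eA and 14730 bp in 21 peaks in lA. At Macf1 (chr4:123294043-123364931), which links actin and microtubules, the region held 5825, 9652 and 12956 bp. At Tns3 (chr11:8437589-8576031), a protein of cell adhesions, it held 8869, 11128 and 16317 bp. The others lay near Ahdc1, Mrps23, Fam53b, Wwc1, 6430527G18Rik and Tom1l2.

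The regions of aNPC alone with the widest margin over the other stages lay near Nat10, Kirrel3, Rptor, Hdac11, Dusp7 and Ptpro. Near Nat10, an RNA acetyltransferase (chr2:103483262-103559248), the region held 12358 bp in 18 peaks in aNPC, 1813 bp in 7 peaks in eA and 2680 bp in 6 peaks in lA. At Dusp7 (chr9:106262953-106324209), a phosphatase of the ERK kinases, it held 11024, 1504 and 2206 bp. At Ptpro (chr6:137381865-137441401), a receptor tyrosine phosphatase, it held 11695, 3535 and 2902 bp. The region at Hdac11 (chr6:91096001-91170999), a histone deacetylase, held 11825, 2615 and 2884 bp and also held the start of Fbln2, a matrix gene. Near Nat10, H3K4me1 of aNPC covered 82.7% of the bases under distal H3K27ac peaks of any stage, and H3K4me1 of lA covered 63.3%.

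The regions of eA alone had smaller margins. At Gabbr2 (chr4:46848482-46883366), a subunit of the GABA-B receptor, the region held 2278 bp in aNPC and 5396 and 1636 bp in eA and lA. At Cp (chr3:19848063-19866150), which codes for the ferroxidase ceruloplasmin, it held 3497, 6022 and 2885 bp. Peaks dropped there for a centre within 1 kb of a Cp start came to 777 (aNPC), 0 (eA) and 1202 bp (lA). The part of this rule in the larger eA width was not tested. The widest eA peak of the region, 3679 bp, was kept and covered the start of the gene though its centre lay over 1 kb away. Such peaks were rare: 9 of the 500 eA domains, 6 of the aNPC domains and 3 of the lA domains held at least 1, and when they were left out, a choice made after the data were seen, the domains of 1 stage alone numbered 310, 145 and 174. The regions near Palm2, Mpp5 and Atxn2 held 6097, 4880 and 5690 bp in eA and at most 3789 bp at another stage.

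The regions of lA alone with the widest margins lay near Vps13d, Fam179a, Map3k8, St5, Tiam2 and 2010111I01Rik. At Vps13d (chr4:144562090-144625538), a lipid transfer protein, the region held 1977 bp in aNPC, then 1222 bp in eA and 8843 bp in lA. At Fam179a (chr17:72001576-72095311) it held 3002, 6232 and 12328 bp. At Map3k8 (chr18:4220242-4311264), a kinase upstream of ERK, it held 1960, 4321 and 10412 bp, and at St5 (chr7:116743546-116793628) it held 1138, 1992 and 8045 bp. At Tiam2 (chr17:3313705-3444217), an activator of Rac, it held 6126, 6631 and 12237 bp, the most in aNPC of the regions of lA alone named here.

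The regions that held domains of all 3 stages were long, with a median span of 57.7 kb, and their median widths were close, at 8237 bp in aNPC against 8011 in eA and 8454 in lA. The widest by their smallest width lay near E130114P18Rik, Chd2, Ppara, Ahdc1, Cxxc5 and Cuedc1. At Chd2 (chr7:80652576-80792917), a chromatin remodeller, the region held 17697 bp in aNPC and 18056 and 16908 bp in eA and lA. At Cuedc1 (chr11:87899851-88012688) it held 13075, 17905 and 17438 bp.

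Within regions of all 3 stages the peaks themselves were shared more often. A peak was called unique to a stage where no H3K27ac peak of another stage touched it. In these regions 21.1% of the aNPC peaks, 11.1% of the eA peaks and 12.9% of the lA peaks were unique, and in domains of 1 stage alone 46.1%, 21.1% and 36.6% were. Over all distal peaks the shares were 43.4%, 20.1% and 32.8%. The overlap of the same peak lists sorted the regions into these groups, so the difference between these groups follows from the grouping and is a description.

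H3K4me1 was not used to choose the domains, and it was asked how much of the H3K27ac peak bases of a domain lay under an H3K4me1 peak at each stage. The domains of lA alone were the least covered in aNPC. H3K4me1 of aNPC covered a median of 49.7% of their H3K27ac bases, H3K4me1 of eA 71.1% and H3K4me1 of lA 69.6%. At least 50% of the bases were covered in 84 of the 173 domains in aNPC (48.6%, 41.2 to 56.0), in 160 in eA (92.5%) and in 164 in lA (94.8%). Over all joined lA domains the shares were 55.6%, 79.2% and 83.1%. The eA and lA shares lay above those of all joined domains and the aNPC share below it. The 500 lA domains held a median of 11.5 peaks and all joined lA domains a median of 2, so these shares compare domains of unlike size. By single peaks, 59.8%, 80.1% and 83.0% of those in domains of lA alone overlapped H3K4me1 of aNPC, eA and lA. Over all distal lA peaks the shares were 65.8%, 82.5% and 85.6%, higher with each list. The medians did not all follow the shares, since over all joined lA domains they were 56.6%, 78.9% and 79.6%, above those of the domains of lA alone with each H3K4me1 list. The aNPC share stayed below that of all joined domains in the 15 settings that bear on it, the reported one included, and the difference ran from -11.7 points with 250 domains to -0.27 points under the 5000 bp limit.

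No domain of lA alone was without H3K4me1 in aNPC, and the lowest cover was 12.7%, but none of the 500 domains of any stage was without H3K4me1 of any stage, while 5663 of all 27738 joined lA domains had none in aNPC. As 34.3% of all joined lA domains were a lone peak, nothing is read from that difference. The lA domains shared with another stage had at least 50% cover in aNPC in 253 of 327 (77.4%, 72.5 to 81.6). Of the bases under H3K27ac peaks of any stage at Vps13d, H3K4me1 covered 29.9% in aNPC, 68.6% in eA and 77.7% in lA, at St5 it covered 20.6%, 51.5% and 79.5%, and at Il1r2, whose domains were of eA and lA, 36.3%, 67.9% and 63.1%. In each of these regions the aNPC list covered least.

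The domains of eA alone were covered at all stages. The median was 70.9% with H3K4me1 of aNPC, 78.1% with that of eA and 71.7% with that of lA, and at least 50% was covered in 129 (89.6%), 134 (93.1%) and 131 (91.0%) of the 144 domains. Over all joined eA domains the shares were 74.4%, 88.5% and 85.0%. The medians over all joined eA domains were higher, at 78.9%, 91.1% and 85.4%. All joined eA domains held a median of 2 peaks, so here too domains of unlike size are compared. By single peaks, 79.0%, 86.1% and 83.8% of those in domains of eA alone overlapped H3K4me1 of aNPC, eA and lA, against 78.4%, 89.1% and 86.4% of all distal eA peaks. The lowest cover with H3K4me1 of eA was 8.95%. At Cp and Sox2, whose regions held the start of the gene, H3K4me1 of eA lay over 27% and 15.8% of the bases under H3K27ac peaks of any stage.

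The domains of aNPC alone were covered in aNPC and eA and less so in lA. The median was 75.7% with H3K4me1 of aNPC, 70.9% with that of eA and 58.4% with that of lA. At least 50% was covered in 293 (94.8%), 284 (91.9%) and 217 (70.2%, 64.9 to 75.1) of the 309 domains, against 79.5%, 77.3% and 65.2% of all joined aNPC domains, and with equal numbers of H3K4me1 peaks the lA share was 61.2% against 60.8%. The medians over all joined aNPC domains were again higher, at 80.4%, 78.3% and 65.5%. All joined aNPC domains held a median of 2 peaks, so the sizes again differ. By single peaks, 83.4%, 80.2% and 72.4% of those in domains of aNPC alone overlapped H3K4me1 of aNPC, eA and lA, against 82.5%, 80.9% and 73.2% of all distal aNPC peaks. The lA share of domains lay above that of all joined domains by less than the other shares did, although the lA list was the longest, with 203377 H3K4me1 peaks over 116 Mb against 150527 peaks over 89.7 Mb in aNPC and 181227 over 109 Mb in eA. All 500 aNPC domains held some H3K4me1 in every list, while 2410 of the 25495 joined aNPC domains held none in aNPC and 3917 held none in lA. Nothing is read from that difference, as 39.3% of all joined aNPC domains were a lone peak.

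**Figure D3:**
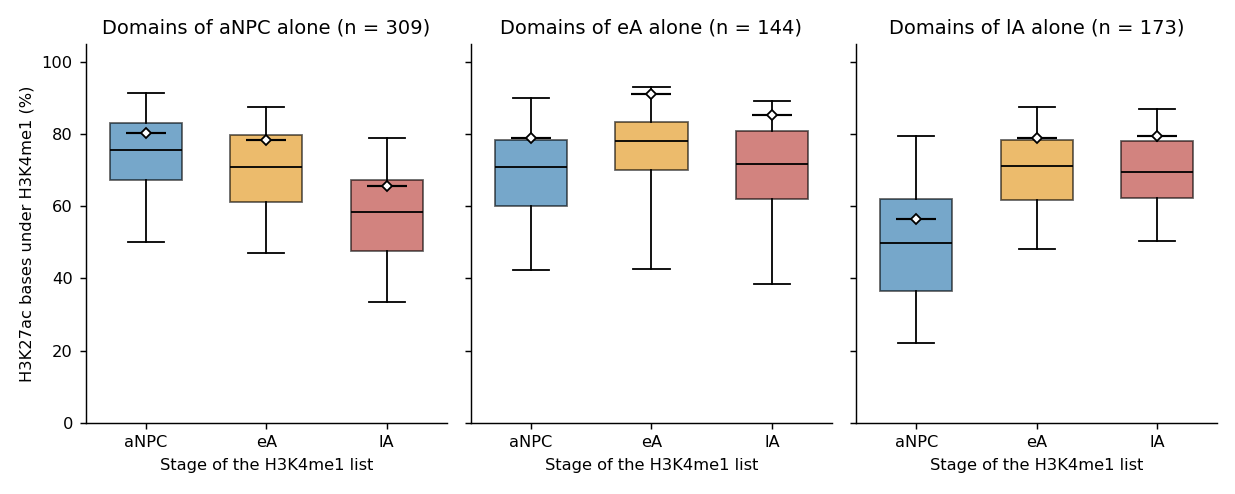
Percent of the H3K27ac bases of a domain that lie under H3K4me1 of aNPC, eA and lA, for the domains of aNPC alone (n = 309), eA alone (n = 144) and lA alone (n = 173). Boxes show quartiles, whiskers the 5th to 95th percentile, and the white diamonds with a black line the median over all joined domains of the stage. Every box has its median below the diamond, and the lowest box is aNPC H3K4me1 over the domains of lA alone, with a median of 49.7%.

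The peaks of the domains lay in introns more often than distal peaks did. In aNPC 54.9% of the domain peaks and 48.6% of all distal peaks had their centre in an intron, in eA 62.5% and 52.1%, and in lA 57.2% and 48.6%. Their windows had a mean GC content of 49.9%, 49.3% and 49.7%, against 47.8%, 47.7% and 47.7% over all distal peaks. Chromosome 11 held 50 of the 500 domains of aNPC, 45 of eA and 49 of lA (10.0%, 9.0% and 9.8%), and 5.62%, 5.93% and 5.66% of all joined domains.

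The letters of the motifs were counted in the 200 bp windows of the domain peaks and of all distal peaks of the stage. An AP-1 match was in 6.20% of the aNPC, 5.21% of the eA and 5.66% of the lA windows, and in 6.60%, 6.52% and 6.27% of the windows of all distal peaks. An E-box match was in 14.5%, 12.9% and 14.0%, against 12.6%, 13.2% and 12.6%. An NF1 half-site was in 11.1%, 11.9% and 11.5%, and a RUNX match in 15.7%, 14.8% and 15.0%. A SOX match was in 9.58%, 9.76% and 9.15%, against 10.8%, 10.5% and 10.5%, and the NF1 full site was in 1, 3 and 1 windows. A STAT match was in 0.635%, 0.415% and 0.592%, against 0.674%, 0.667% and 0.713%. The eA share rested on 23 of 5545 windows, and in windows of 500 bp it was 2.06%, against 1.99% of all distal eA peaks. Over the 9 motifs and 3 stages the differences ran from -1.34 to 1.88 percentage points. In windows of 500 bp, 8 of 27 differences were over 2 points, from -2.84 to 2.65, and the shares were lower in the domains for AP-1 (eA and lA), the NF1 half-site (aNPC and eA) and SOX (aNPC and lA) and higher for the E-box (aNPC and lA). A match is not a bound site.

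The nearest coding gene of a domain was taken from its centre. The 500 domains had 450 (aNPC), 466 (eA) and 472 (lA) nearest genes, and 904 genes in all, of which 126 were nearest to a domain at all 3 stages and 259, 129 and 158 at aNPC, eA or lA alone. With the genes whose start lay inside a domain, 474 genes in aNPC (2.23% of 21275 coding genes), 501 in eA (2.35%) and 500 in lA (2.35%) were counted. The median distance from the centre to the start was 40.6 kb in aNPC, 32.6 kb in eA and 32.6 kb in lA, and 129, 152 and 157 domains held a start site. The largest distance, 1562 kb in aNPC, shows how far a nearest gene can be.

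Of the genes nearest to a domain, most had an acetylated promoter. A peak centred within 1 kb of a start site of the gene was found for 344 of the 450 nearest genes of aNPC domains in aNPC (76.4%), for 356 of the 466 of eA domains in eA (76.4%) and for 333 of the 472 of lA domains in lA (70.6%). Over all coding genes the shares were 52.3%, 55.3% and 51.5%. For the genes of regions of lA alone, a promoter peak was found in aNPC for 107 of 167 genes (64.1%), in lA for 111 (66.5%) and at all 3 stages for 99 (59.3%). Promoter and domain peaks come from the same libraries and are not independent.

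The stages were compared with lists of genes that mark cell types. A gene was given the joined domains whose nearest gene it was and those that held a start site of it. Over all coding genes, 960 of 21275 (4.51%) were near a domain of at least 1 stage, and this share is the background of the counts below. The widest joined domain of a gene can hold less than its region does, where peaks of a stage fell into separate joined domains. Of the 17 neural progenitor genes on chromosomes 1 to 19, Sox2, Nes and Notch1 (17.6%) had a domain in aNPC and in eA, and Sox2 and Notch1 in lA. The widest domain of Notch1, the receptor that holds precursors undifferentiated, was 14426 bp in aNPC (rank 12), 9381 bp in eA (rank 39) and 7663 bp in lA (rank 181), while its region (chr2:26330345-26433991) held 14426, 14047 and 12747 bp, so the smaller eA and lA domains came mostly with peaks that were joined into separate domains. That of Nes, an intermediate filament gene of precursors, was 5978 bp (rank 284), 6459 bp (rank 181) and 3768 bp (rank 1431). Pax6, which was not among the 500 at any stage, was at rank 1836, 1171 and 868.

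Of the 20 astrocyte genes, Aqp4, Slc1a3 and Ntsr2 (15%) had a domain at some stage, against 4.51% of all coding genes. At Aqp4, the water channel of astrocytes (chr18:15563050-15602222), the region held 1680 bp in 3 peaks in aNPC, 8897 bp in 12 peaks in eA and 8362 bp in 13 peaks in lA, and its rank was 51 in eA and 124 in lA. At Ntsr2, a neurotensin receptor of astrocytes, the domain was 7657, 7171 and 9508 bp and was among the 500 at every stage. Slc1a3, the glutamate transporter GLAST, had 4697, 5788 and 5117 bp and passed only in eA. Gfap, the filament gene used to mark astrocytes, had no domain among the 500: its widest joined domain was 648 bp in aNPC (rank 16372), 2615 bp in eA (rank 2126) and 3370 bp in lA (rank 1873). Other members went the other way, as Fgfr3 and Sparcl1 had 3762 and 3549 bp in aNPC and 1002 and 746 bp in lA. Of the 19 genes with a joined domain, 8 had a wider one in aNPC than in lA (42.1%) and 11 a wider one in lA (57.9%). These shares were near the 40.0% and 53.8% of all coding genes with a joined domain.

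The list of astroglial transcription factors had the most members near a domain, 8 of 15: Nfia, Nfib, Sox9, Etv5, Zbtb20, Id3, Tead1 and Cebpb, 5 of them in aNPC, 7 in eA and 5 in lA. This was 53.3% of the list, against 4.51% of all coding genes, and the lists were chosen with earlier results of these data known. Nfib had domains in aNPC alone, with 6158 bp there and 3599 and 3513 bp in eA and lA. Sox9 was at rank 976 (aNPC), 118 (eA) and 441 (lA), and Id3, an inhibitor of helix-loop-helix factors, at rank 1205, 35 and 71, with 3580, 9521 and 9402 bp, where the aNPC peaks of the region came to 6083 bp. Tead1, an effector of the Hippo pathway, and Cebpb had a domain at all 3 stages. Runx2 was not among the 500, but was at rank 4794, 4598 and 761, and Atf3 was at rank 11285, 4513 and 4169.

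Of the 12 AP-1 genes, Jun had a domain in aNPC, Fosb in eA and Fos in lA, each at 1 stage only (25% at any stage, against 4.51%). The widest domain of Jun was 5217, 3697 and 3707 bp, that of Fosb 1356, 5332 and 4026 bp, and that of Fos 3442, 1851 and 6220 bp. The regions themselves held 5217, 1252 and 1595 bp at Jun, 3882, 5332 and 3959 bp at Fosb, and 2125, 3955 and 6220 bp at Fos. At Fos the eA value was thus below the aNPC value by widest domain and above it by region. Of the 11 oligodendrocyte lineage genes, Olig1, Olig2 and Cspg4 had domains, all of aNPC alone (27.3%, against 2.23% of all coding genes in aNPC and 4.51% at any stage). At Cspg4, the NG2 proteoglycan (chr9:56677892-56748698), the region held 8595 bp in aNPC and 2642 and 3317 bp in eA and lA, and at Olig2 (chr16:91221670-91248537) it held 7000, 2642 and 2934 bp. At Olig1 (chr16:91262059-91283249) it held 6209, 4616 and 4788 bp, and its best domain in eA ranked 524, just past the limit. The Olig1 and Olig2 regions lie side by side on chromosome 16, so these members are not separate loci. Of the 8 genes of this list with a joined domain, 6 had a wider one in aNPC than in lA, while Mbp and Mog had a wider one in lA.

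None of the 13 neuronal genes and none of the 9 microglial genes had a domain among the 500 at any stage, and with 4.51% of all coding genes as background a count of 0 is near the background for lists of this length. Of the 10 endothelial genes, Tek (10%) did in aNPC, with 5683 bp there and 1442 and 1503 bp in its widest eA and lA domains. Among 11 pluripotency genes, Sox2 and Klf4 (18.2%) had domains, and Pou5f1, Zfp42 and Lin28a had no joined distal domain at any stage. Nanog had 475 bp in aNPC against 3010 in eA and 4319 in lA, none among the 500. Whether cells of other types added to the domains was not tested.

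The pathways of the factors in the media were compared through the widest joined domain of each gene. Of the 17 FGF and EGF signalling genes with a joined domain, 15 had a wider one in aNPC than in lA (88.2%), against 40.0% of the 12390 coding genes with a joined domain and 6 of 8 oligodendrocyte lineage genes (75%). At Egfr, the EGF receptor (chr11:16693691-16776777), the widest domain was 10412 bp in aNPC (rank 41), 3274 bp in eA (rank 1261) and 3693 bp in lA (rank 1510), and the whole region held 10412, 5394 and 7766 bp. At Ccnd1, the cyclin that mitogens induce, it was 8589 bp (rank 82), 2806 bp and 3758 bp. The feedback inhibitors Spry1, Spry2, Spry4, Spred1 and Dusp6 were also widest in aNPC, with 3464, 2705, 3156, 4803 and 2933 bp, though none reached the 500. Fgfr1 and Fgfr2 were the exceptions, with 5335 and 3425 bp in lA and 4572 and 2720 bp in aNPC.

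Of the 17 JAK-STAT signalling genes, 4 had a wider domain in aNPC than in lA and 12 had a wider one in lA (70.6%), against 53.8% of all coding genes with a joined domain. Other lists had a similar share, with 8 of 11 AP-1 genes (72.7%), 11 of 15 astroglial factors (73.3%) and 9 of 12 neuronal genes (75%) wider in lA, so the share is not particular to the JAK-STAT list. At Socs3, the feedback inhibitor of gp130 signalling, whose start lay in a domain at chr11:117815716-117883117, the widest domain was 2835 bp in aNPC (rank 2093), 10671 bp in eA (rank 23) and 10544 bp in lA (rank 41). At Il6st, which codes for gp130, it was 1178, 1760 and 5779 bp, only lA passed (rank 453), and the region held 2351, 4271 and 5779 bp. Bcl3 had no domain in aNPC, 4151 bp in eA (rank 673) and 5152 bp in lA (rank 646). Stat3 had 215 bp in aNPC, 3208 bp in eA and no domain in lA.

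Of the 19 TGF-beta and BMP genes, 4 were wider in aNPC than in lA and 15 were wider in lA (78.9%, against 53.8% of all coding genes and 75% of the neuronal list). Ski, which restrains SMAD proteins, had 3756 bp in aNPC and 4227 and 6217 bp in eA and lA (rank 360), and Tgfbr2, a receptor, had 5303 bp (rank 422), 4704 bp (rank 484) and 4874 bp (rank 757). Of the 24 matrix and adhesion genes, Col4a2 and Sparc had a domain in aNPC alone, Lamc1 had an internal start site in an lA domain whose region also held an eA domain, and Thbs2 had domains at all 3 stages (16.7% at any stage, against 4.51%). At Sparc the widest domain was 7806 bp in aNPC (rank 119) and 3431 and 3857 bp in eA and lA, and the region held 7806, 3710 and 4727 bp. At Lamc1 the widest domain was 2946, 2957 and 9480 bp (rank 67 in lA), and the region held 4425, 7409 and 9480 bp. Of the 23 matrix and adhesion genes with a joined domain, 8 had a wider one in aNPC than in lA and 15 a wider one in lA (65.2%). The lA list covers more bases than the others, and its part in the wider lA domains was not tested.

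**Figure D4:**
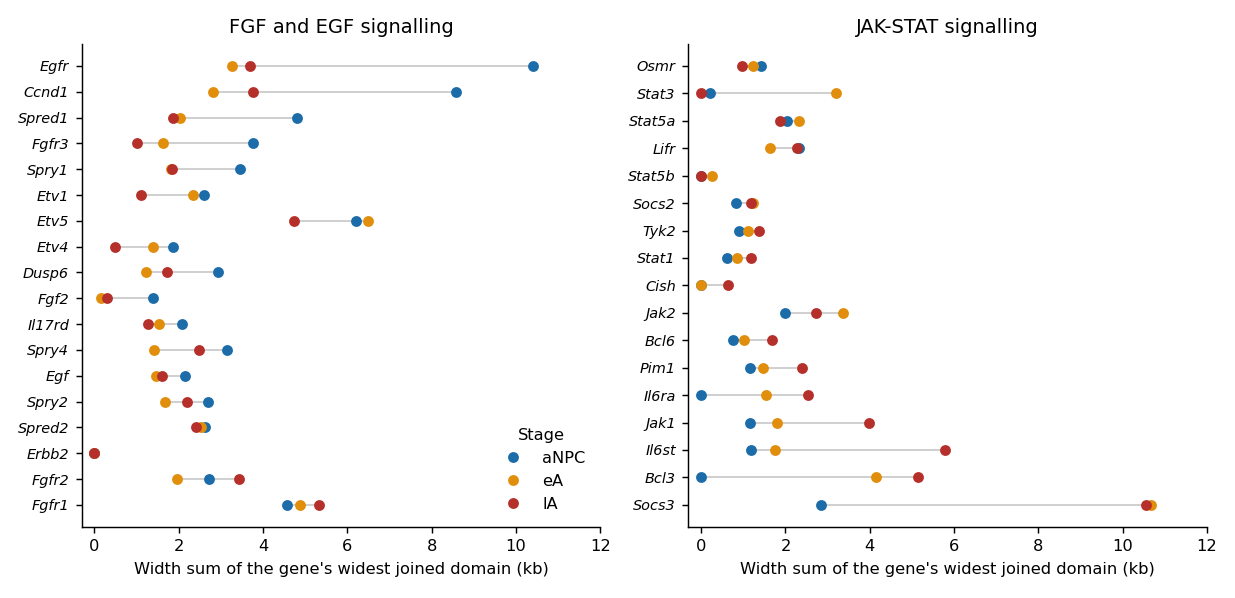
Width sum (kb) of the widest joined domain of each gene on the FGF and EGF list (left) and on the JAK-STAT list (right) in aNPC (blue), eA (orange) and lA (red), with a grey line from the lowest to the highest. In the left plot the aNPC point is to the right of the lA point for 15 of 17 genes with a domain, and in the right plot for 4 of 17.

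Genes could be nearest to several regions, and 97 genes were nearest to 2 or more. Nfia, Qk and Sox2 had 4 regions each, 7 genes had 3 and 87 had 2. Of the 126 genes near a domain at all 3 stages, 110 had 1 region with domains of all stages, and 16 were near domains of all stages only through separate regions. In 20 genes, a region of aNPC alone and a region of eA, of lA or of both had the same nearest gene. Such regions could lie far apart, and at Map3k7 they were centred 1330.5 kb before and 98.9 kb past the first start site. They could also differ little in width between stages, as the Dst region of aNPC alone held 5537, 4607 and 4575 bp.

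At Sox2, a transcription factor of neural precursors, the 4 regions had different patterns. A region 195 kb before the start (chr3:34341822-34365543) was of aNPC alone, with 6441 bp in aNPC, then 2522 bp in eA and 1945 bp in lA. The region over the gene itself (chr3:34547560-34570631) was of eA alone, with 3433, 5831 and 3121 bp, and its eA window is printed above. These widths leave out the peaks centred within 1 kb of a Sox2 start, which came to 879 (aNPC), 591 (eA) and 2134 bp (lA). The width left out was thus largest in lA. The peak of the printed eA window (chr3:34549382-34550801) was kept, since its centre lay over 1 kb from the start. How much of the larger eA width came from this rule was not tested. A region 432 kb past the start (chr3:34958975-35002292) was of eA and lA, with 2554, 6699 and 7137 bp, and a last one 497 kb past it (chr3:35039111-35051953) was of aNPC and eA, with 5071, 4710 and 3813 bp. A count of genes alone gives Sox2 as shared by all stages, while the regions differ.

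At Nfia the 4 regions were 2 of aNPC alone, 1 of eA alone and 1 of lA alone. Distances are from the first start site of the gene to the centre of the region. The region 69.9 kb before it (chr4:97356352-97382709) held 5136 bp in aNPC against 1152 in eA and 1384 in lA. The region 94.1 kb past it (chr4:97505458-97561518), which holds a later start site, held 3426, 5966 and 4849 bp, and the region 157 kb past it (chr4:97576788-97615968) held 5289, 5300 and 4441 bp, and the last of these counted as aNPC alone although its eA width was as large, since its eA peaks fell into separate joined domains that were each too small. The region 328 kb past it (chr4:97758041-97776791) held 1831, 3871 and 5650 bp.

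**Figure D5:**
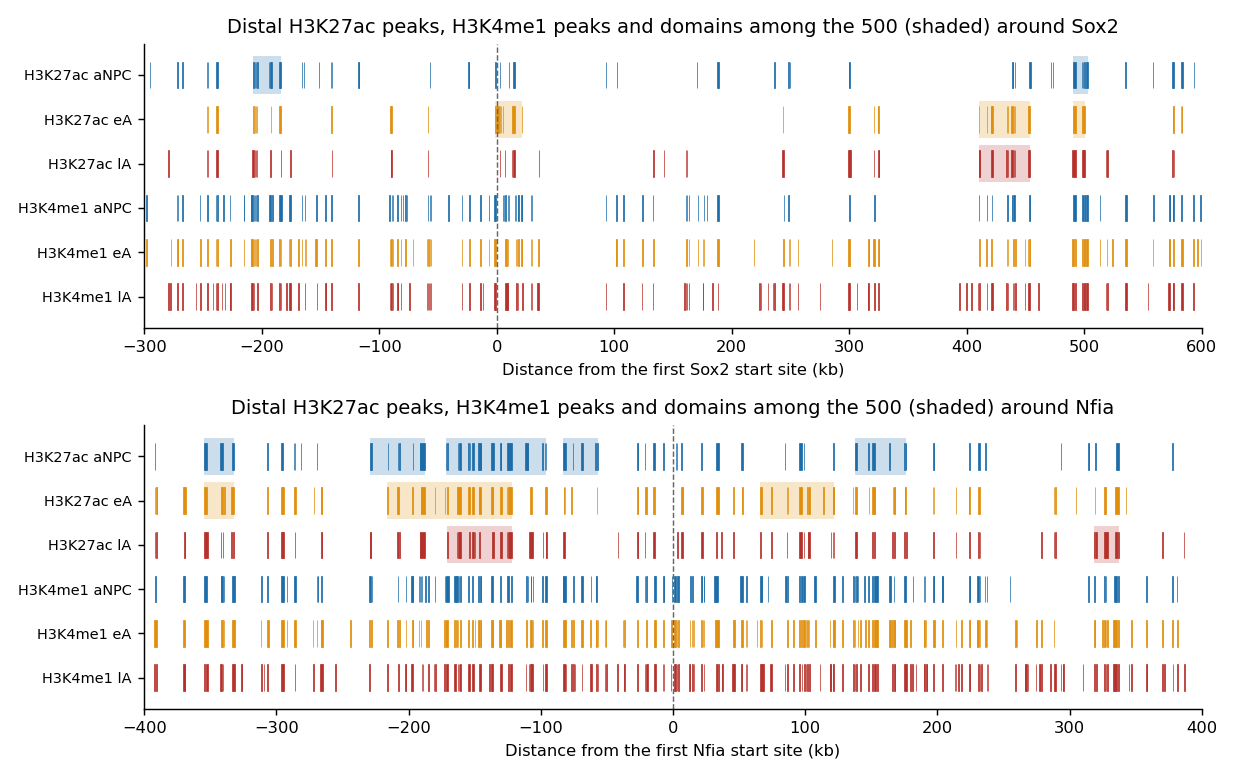
Distal H3K27ac peaks and H3K4me1 peaks of aNPC (blue), eA (orange) and lA (red) as bars against the distance (kb) from the first start site of Sox2 (upper plot) and Nfia (lower plot), with the domains among the 500 shaded. At Sox2 the stretch 195 kb before the start is shaded in aNPC alone and the one 432 kb past it in eA and lA, while both marks are present at many of the same places in several stages.

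The other genes nearest to both a region of aNPC alone and a region of eA, lA or both included Macf1, Npas3, Serpine2, Tbc1d1 and Schip1. At Serpine2, which codes for a serine protease inhibitor, a region of aNPC alone (chr1:79976317-80036374) held 6126 bp in aNPC and 1361 and 2740 bp in eA and lA, and a region of eA alone (chr1:79819036-79858495) held 5911, 4910 and 4207 bp, where the aNPC peaks fell into separate joined domains below the limit. At Tbc1d1 the aNPC region held 7008, 2560 and 2543 bp and the eA and lA region held 4454, 4919 and 6528 bp. At Macf1 the aNPC region held 5795, 3124 and 2868 bp and the eA and lA region 5825, 9652 and 12956 bp. These 5 genes were chosen after their values were seen.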

How the data were processed

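H3K27ac and H3K4me1 were profiled in aNPC, eA and lA with 2 replicates per stage and mark. The authors aligned the reads uniquely to mm9 with Bowtie, merged the replicates with SAMtools and called peaks with MACS2 at default settings and without input. The 6 deposited lists give an integer score, which was not used. The fold of a deposited peak is its enrichment over the local background at the summit. The −log10 q of the authors was used, like the fold, only to rank or filter peaks within 1 list. The lists do not give the depth, which is unknown here.

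Start sites came from GENCODE release M1 on mm9 (43968 sites of 21275 coding genes). Domains were joined and measured with Python 3.11.15, the joining was checked against bedtools 2.31.1 on simulated peaks, and plots were drawn with matplotlib 3.10.9. Named were the 10 largest domains per stage, the 6 regions of each stage alone with the widest margin, the 6 regions of all stages with the largest smallest width, and genes of 13 lists near a domain. Members and lists were chosen with earlier results of these data known. With merged lists, no test was run. Shares carry 95% Wilson intervals. Alternatives changed the joining distance, start site window, ranking, thresholds, list length, number taken, overlap and motif window. RNA-seq and knockdown samples were not analysed here, and 8 of the 51 samples were not assigned to a group.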

Additional observations from a re-analysis of the deposited data

Results flagged for a closer look

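Chromosome X was outside the rule that chose the domains. Joined by the same steps, it held 4 domains in aNPC, 5 in eA and 4 in lA that were at least as wide as the 500th domain of their stage. They were singled out because they are signal outside the chromosomes compared, and they enter no count of the report.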

How the results depend on the processing

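Under 16 alternatives, 120 values were recomputed, of which 95 stayed within their interval or within 1.5 times the count and 25 moved. The AP-1 and E-box shares in windows of 500 bp, given below, are not in this count, and each lay outside its interval for 200 bp. No paired analysis was possible because the deposited lists hold the merged reads of both replicates, and for the same reason no replicate could be left out. The domains of aNPC, eA and lA alone numbered 155, 69 and 91 with 250 domains per stage and 548, 237 and 305 with 1000, as fewer or more domains were taken. With a width sum of at least 5000 bp in every list, chosen after the data were seen, eA alone had 61 and lA alone 336. Regions of all 3 stages numbered 50 and 268, and shared nearest genes 45 and 270, with 250 and 1000 domains. eA domains met by aNPC were 29.4% with peaks joined over 5 kb, 43.8% over 25 kb, 43.8% with no peak dropped near start sites and 39.3% with 1000 domains. eA domains met by lA were 55.0% over 5 kb, 48.0% when ranked by span and 79.95% under the 5000 bp limit. aNPC domains of that stage alone with at least 50% H3K4me1 cover in lA were 64.8% over 5 kb, 77.7% over 25 kb, 76.8% with 250 domains, 62.8% with an H3K4me1 −log10 q of at least 5 and 61.2% with equal numbers of H3K4me1 peaks. lA domains of that stage alone with such cover in aNPC were 57.4% with an H3K27ac −log10 q of at least 5. The causes were not tested. In the 14 settings that bear on it, the reported one included, eA domains met lA domains more often than aNPC domains, by 13.8 to 42.8 points, and aNPC had the most domains of its own in 13, the exception being the 5000 bp limit. In windows of 500 bp, an AP-1 match was in 16.0%, 16.1% and 14.9% of the domain peaks of aNPC, eA and lA, against 16.5%, 18.7% and 17.4% of all distal peaks, and an E-box match in 31.5%, 29.5% and 29.3%, against 28.9%, 29.3% and 27.1%. The depth of the merged libraries is unknown here, and its part in the widths compared between stages was not tested.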
